A study of Drosophila melanogaster with 6 samples.

Results

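Drosomycin (Drs) and the drosomycin-like genes Drsl1 to Drsl6 were followed in infected male adults of Drosophila melanogaster, 12 h after Micrococcus luteus, which is Gram-positive, had been injected. The family is 7 of the 17558 genes of the deposited table. The members were chosen by name, as the table rows of Drsl1 to Drsl6 and of FBgn0010381, which is taken as an older FlyBase identifier of Drs; the table and the annotation do not pair the 2, so this is assumed. There were 3 libraries from flies overexpressing CR33942 (a long noncoding RNA, NANPI in the series), and 3 from control flies. The overexpressing strain is labelled Gal80ts; Tub> NANPI. The control strain is labelled Gal80ts; Tub-Gal4/P{CaryP}attP40, where P{CaryP}attP40 is a transgene landing site often used as a control background. Both groups were infected and both carried the temperature-sensitive Gal80 repressor, so an uninfected level is not part of this comparison. The tubulin driver acts in nearly all tissues, and strain and overexpression differ together. The labels do not say whether the libraries came from separate pools of flies, so p-values cover only library-to-library spread, which may be technical. In material from many tissues, fewer cells of a type and less RNA per cell cannot be told apart.

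Drosomycin is a secreted, disulphide-bonded antifungal peptide of the defensin type. In the systemic response it is made mainly by the fat body, the liver-like organ of the fly, when the Toll receptor is activated and the NF-kB factors Dif and Dorsal enter the nucleus; it is a standard readout of that pathway. Lysine-type peptidoglycan of Gram-positive bacteria such as M. luteus is a natural trigger of Toll. The drosomycin-like genes encode related peptides and are known mainly from epithelia; in the gut, Drsl3 is known to respond to JAK-STAT signalling. The series asks whether CR33942 raises Toll-dependent transcription of antibacterial peptides, and drosomycin is a widely used reporter of that pathway.

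All members lay on chromosome arm 3L within 55.6 kb (dm6 coordinates, Ensembl annotation), and each was annotated as a single-exon protein-coding gene. Drsl2 (3314349 to 3314681), Drsl3 (3314996 to 3315355), Drsl4 (3315620 to 3315942) and Drsl5 (3316781 to 3317144) followed each other on the plus strand within 2.80 kb. Drsl1 (3335579 to 3335788) and Drsl6 (3336032 to 3336418) lay next to each other on the minus strand. Drs itself stood alone on the plus strand at 3369556 to 3369942, with the start of Drsl5 at -52.8 kb from its own. Its annotated transcript has 387 nt, with a 5′ UTR of 63 nt and a 3′ UTR of 111 nt. The predicted precursor peptides were of nearly one size, 70 residues for Drs and 69 to 72 for the Drsl genes. The annotated model of Drsl1 held coding sequence only, with no UTR. None of the 12 other genes annotated in this stretch and 5 kb beyond it overlapped a member on either strand. The labels do not say how reads matching several members were counted, so reads shared between these related genes remain an uncertainty.

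The annotation used here does not hold FBgn0010381. Its values gave whole reads in every library when multiplied by a length of 387 nt, to within 0.00016 of a read, which is the exon length of Drs. That was the shortest of 7 lengths found that did so, within a search up to a set longest length. A whole multiple of such a length also gives whole reads, so the longer lengths need not be separate alternatives. Of 11 annotated features with a length of 387 nt, 5 were in the table under their own identifiers. The others were Drs, lncRNA:CR46496 and transposable elements. The present identifiers of Drs (number 283461) and lncRNA:CR46496 (number 287669) are both higher than the highest in the table (number 267795). The length is therefore compatible with Drs but does not identify it, and the values are given under FBgn0010381.

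FBgn0010381 was the most abundant transcript outside the mitochondrial genome in all 6 libraries. It ranked 2 of 17558 in each, behind the mitochondrial ribosomal RNA mt:lrRNA. FPKM (fragments scaled to exon length and to library size) was used to compare levels between genes, so ranks and shares depend on the scaling to length. The overexpressing libraries held 17837.5, 16421.7 and 18315.6 FPKM of FBgn0010381, against 17937.0, 18486.3 and 17910.7 FPKM in the control libraries. Overexpressing replicate 2 was the lowest of the 6, and the groups overlapped. The gene made up 2.36% to 2.66% of all FPKM in overexpressing libraries and 2.53% to 2.62% in control libraries. Its share of recovered reads, not scaled to length, was lower, at 0.651% to 0.73% in overexpressing and 0.695% to 0.713% in control libraries. Reads recovered from the values numbered 139995, 127517 and 126716 in overexpressing and 133541, 136920 and 121410 in control libraries, so counting error was small beside the spread between libraries.

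The level of FBgn0010381 averaged 17524.9 ± 985 FPKM in overexpressing and 18111.3 ± 325 FPKM in control libraries (SD, n = 3 each). The log2 change on the log2(FPKM + 1) scale was -0.049 ± 0.077 (SE) and did not pass the threshold (limma, Benjamini-Hochberg adjusted p = 0.825 over 12326 genes tested). Its 95% interval ran from -0.23 to 0.13, or from 0.854 to 1.09 as a ratio. A rise of more than 1.09-fold therefore lay outside the interval. CR33942 itself, measured in the same libraries, stood at 568 ± 18.8 FPKM in overexpressing and 19.1 ± 0.423 FPKM in control libraries (SD, n = 3 each), a log2 change of 4.83 (limma adjusted p = 5.74e-09).

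**Figure D1:**
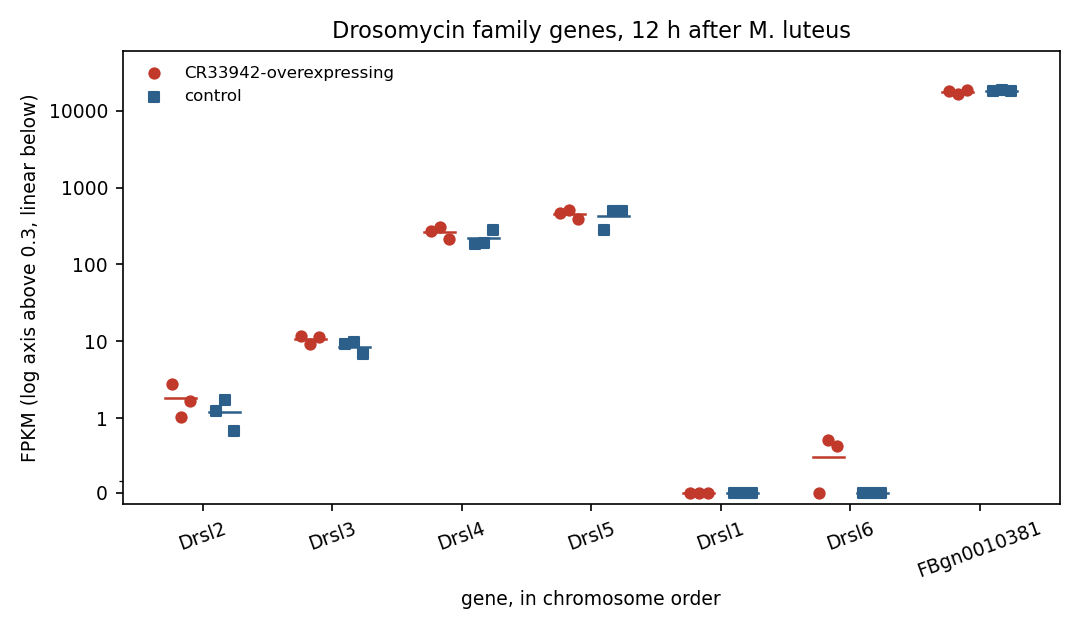
FPKM of each drosomycin family gene in each library (log axis above 0.3 FPKM, linear below; points are libraries, bars are group means), genes in chromosome order with FBgn0010381 placed at the position of Drs. FBgn0010381 lies between 16421.7 and 18486.3 FPKM in all 6 libraries, Drsl4 and Drsl5 lie between 183 and 507 FPKM, and Drsl1 is at 0 throughout.

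Among the drosomycin-like genes, Drsl5 and Drsl4 were well expressed. Drsl5 held 466, 507 and 388 FPKM in overexpressing libraries, against 283, 495 and 500 FPKM in control libraries. Control replicate 1 was the lowest of the 6, and the other control libraries lay at the upper end of the overexpressing range. Drsl4 held 271, 306 and 216 FPKM in overexpressing libraries, against 183, 191 and 284 FPKM in control libraries. By level, Drsl5 ranked 205 to 276 of all genes in overexpressing libraries and 217 to 372 in control libraries, and Drsl4 ranked 339 to 459 in overexpressing and 352 to 526 in control libraries. For Drsl4, control replicate 3 was the high one of its group, above 2 of the overexpressing libraries. The neighbours Drsl4 and Drsl5 thus did not vary in step among the control libraries: their ratio was 0.582, 0.605 and 0.557 in overexpressing libraries, against 0.646, 0.387 and 0.568 in control libraries.

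Drsl3 and Drsl2, which begin the same run of genes, were low. Drsl3 held 11.6, 9.14 and 11.3 FPKM in overexpressing libraries, against 9.10, 9.72 and 6.82 FPKM in control libraries. A single overexpressing library, replicate 2, fell within the control range. Drsl2 held 2.81, 1.05 and 1.68 FPKM in overexpressing libraries, against 1.25, 1.73 and 0.686 FPKM in control libraries, and the groups overlapped. These Drsl2 values rest on 36 reads in all overexpressing libraries and 23 in all control libraries, a ratio of 1.50 after scaling for depth with an exact 95% interval of 0.866 to 2.66 that covers counting error only. For Drsl3 the reads numbered 224 in overexpressing and 173 in control libraries, a ratio of 1.24 (1.01 to 1.52 by counting error alone). Along the chromosome from Drsl2 to Drsl5, the mean level over the 6 libraries was 1.53, 9.63, 242 and 440 FPKM, each gene higher than the one before it.

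The pair on the minus strand was nearly silent in these flies. Drsl1 had no read in any library; 3 reads over all 6 libraries would have been 0.125 FPKM. Drsl6 had 0, 4 and 3 reads in the overexpressing libraries, or 0, 0.515 and 0.434 FPKM, against 0 reads in each control library. 3 reads over the control libraries would have been 0.139 FPKM, so this difference is within a few reads of the detection floor. Neither gene reached 1 FPKM in any library and neither was tested.

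The order of levels was the same in all 6 libraries: FBgn0010381, then Drsl5, Drsl4, Drsl3 and Drsl2. No library exchanged a neighbour in that order, and the closest neighbours, Drsl5 and Drsl4, also kept it in each. FBgn0010381 alone accounted for 95.2% to 96.7% of the family's FPKM in overexpressing libraries and 95.8% to 97.4% in control libraries. It stood 32.4 to 47.2 times above Drsl5 in overexpressing libraries and 35.9 to 63.5 times above it in control libraries. The family's output in these flies was therefore almost wholly that of 1 gene. Between some neighbouring genes the level changed abruptly, as from Drsl3 (mean 9.63 FPKM) to Drsl4 (242 FPKM) on the map of levels along 3L. The step from Drsl4 to Drsl5 (440 FPKM) was smaller.

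**Figure D2:**
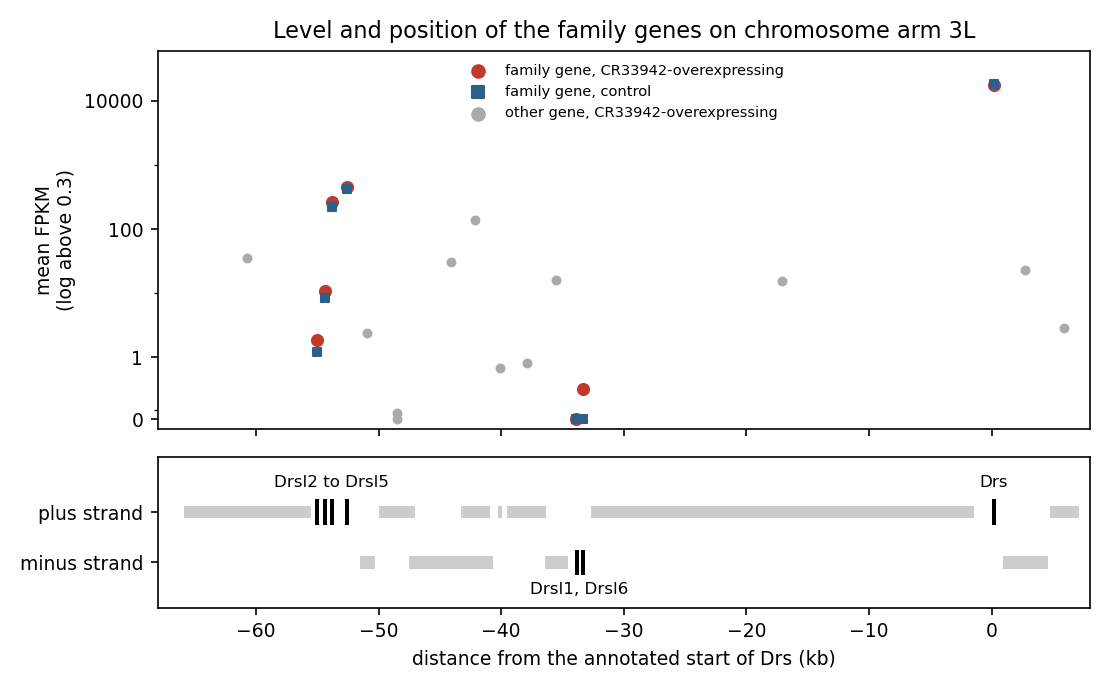
Upper panel, mean FPKM of each family gene in CR33942-overexpressing (circles) and control (squares) libraries and of other genes in overexpressing libraries (grey), against distance from the annotated start of Drs in kb; lower panel, gene bodies by strand, family genes in black. Levels rise from Drsl2 (mean 1.53 FPKM) to Drsl5 (440 FPKM) within 2.80 kb, and Drsl1 and Drsl6 lie at or near 0 between Drsl5 and Drs.

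No member of the family passed the test between the groups. Of the 7 members, 5 had at least 1 FPKM in at least 3 of the 6 libraries and were tested, and limma called 0 of them higher and 0 lower at an adjusted p of 0.05. Over all 12326 genes tested 2.22% were called. None of the 5 had an unadjusted p under 0.05, which 15.7% of all genes had. limma's voom on the recovered reads also called 0 of the 5, where it called 3.73% of all genes (1.26% higher and 2.47% lower), and 0 had an unadjusted voom p under 0.05, against 16.2% of all genes. None had groups that did not overlap, against 20.7% of all genes. With 5 genes, counts of 0 are near the background share and do not set the family apart from other genes.

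The 4 tested drosomycin-like genes had log2 changes above 0, between 0.13 and 0.34, while that of FBgn0010381 was below 0. The median of the 5 members was 0.29, beside 0.002 over all genes tested. For Drsl3, group means were 10.7 ± 1.37 FPKM in overexpressing and 8.55 ± 1.53 FPKM in control libraries (SD, n = 3 each), a log2 change of 0.30 ± 0.14 (SE; limma adjusted p = 0.348). Its 95% interval ran from -0.018 to 0.62, the one among the 5 that came closest to leaving 0 out. Drsl4 averaged 265 ± 45.4 FPKM in overexpressing and 219 ± 56.0 FPKM in control libraries (SD, n = 3 each), a log2 change of 0.29 with an interval of -0.15 to 0.72 (limma adjusted p = 0.528). Drsl5 averaged 454 ± 60.3 FPKM in overexpressing and 426 ± 124 FPKM in control libraries (SD, n = 3 each), a log2 change of 0.13 with an interval of -0.38 to 0.64 (limma adjusted p = 0.838). Drsl2 averaged 1.85 ± 0.895 FPKM in overexpressing and 1.22 ± 0.521 FPKM in control libraries (SD, n = 3 each), with an interval of -0.26 to 0.94 around 0.34 (limma adjusted p = 0.600). Its log2 change was 0.54 with 0.1 FPKM added in place of 1 and 0.53 with voom, so the scale used here understates this low gene.

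These intervals leave room for different sizes of change. As ratios on the same scale, they reached up to 1.55 for Drsl5, 1.64 for Drsl4 and 1.54 for Drsl3. For Drsl2 the limit on this scale was 1.92, which is no bound on its change in FPKM. A rise of that order in a drosomycin-like gene could not be told from none with these libraries, whereas for FBgn0010381 the upper limit was 1.09. The members also differed in their spread within groups. The within-group SD of FBgn0010381 was 0.0609 on the log2 scale, larger than that of 18.6% of all genes tested. That of Drsl5 was 0.36, of Drsl4 0.304 and of Drsl2 0.403, larger than those of 96.3%, 94.3% and 97.3% of genes.

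**Figure D3:**
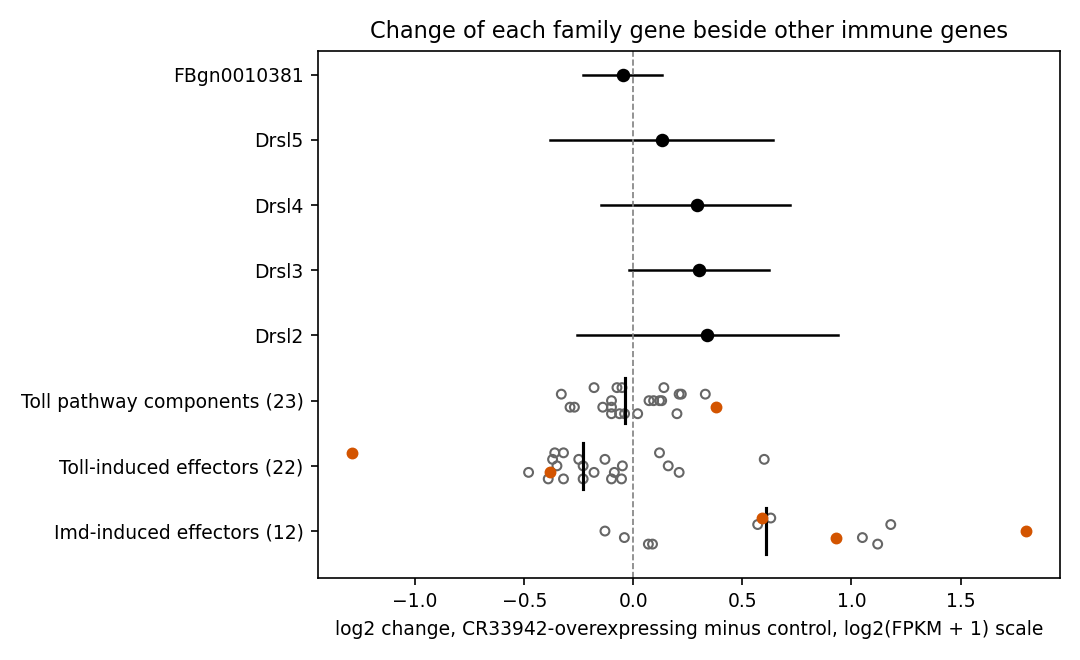
Log2 change, CR33942-overexpressing minus control on the log2(FPKM + 1) scale, for the 5 tested family genes with 95% limma intervals (upper rows) and for each tested gene of 3 immune lists (lower rows; filled points passed an adjusted p of 0.05, vertical bars are list medians, number of genes in brackets). The interval of FBgn0010381 spans -0.23 to 0.13, and all 5 intervals include 0.

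The size of the estimates, and for Drsl5 the direction, depended on single libraries. Without control replicate 1, the low library for Drsl5, its log2 change was -0.14, and it was up to 0.27 without another. Drsl4 stood at 0.17 without overexpressing replicate 2, again at 0.17 without control replicate 1, and at 0.48 without control replicate 3. Drsl3 stood at 0.16 without control replicate 3 and at 0.40 without overexpressing replicate 2. Drsl2 ranged from 0.10 without overexpressing replicate 1 to 0.55 without overexpressing replicate 2. FBgn0010381 stayed below 0, from -0.081 without overexpressing replicate 3 to -0.0027 without overexpressing replicate 2, its lowest library. No member was called in any of these fits.

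Whether the drosomycin-like genes moved relative to FBgn0010381 was asked within each library, as the difference of log2(FPKM + 1). For Drsl3 this ratio was -10.46, -10.66 and -10.54 in overexpressing libraries, against -10.79, -10.75 and -11.16 in control libraries. The groups did not overlap, and the difference was 0.35, with an exact two-sided permutation p of 0.1, the smallest that 3 against 3 libraries allow, and an adjusted p of 0.4 over the 4 genes compared. For Drsl4 the ratio was -6.03, -5.74 and -6.40 in overexpressing libraries and -6.61, -6.59 and -5.98 in control libraries. Its difference was 0.33 (exact permutation p = 0.3), with the groups overlapping. Drsl5 differed by 0.18 (exact permutation p = 0.7) and Drsl2 by 0.39 (exact permutation p = 0.5), and both overlapped. Since this design cannot reach 0.05, these values describe the libraries and do not establish a difference in response between members.

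**Figure D4:**
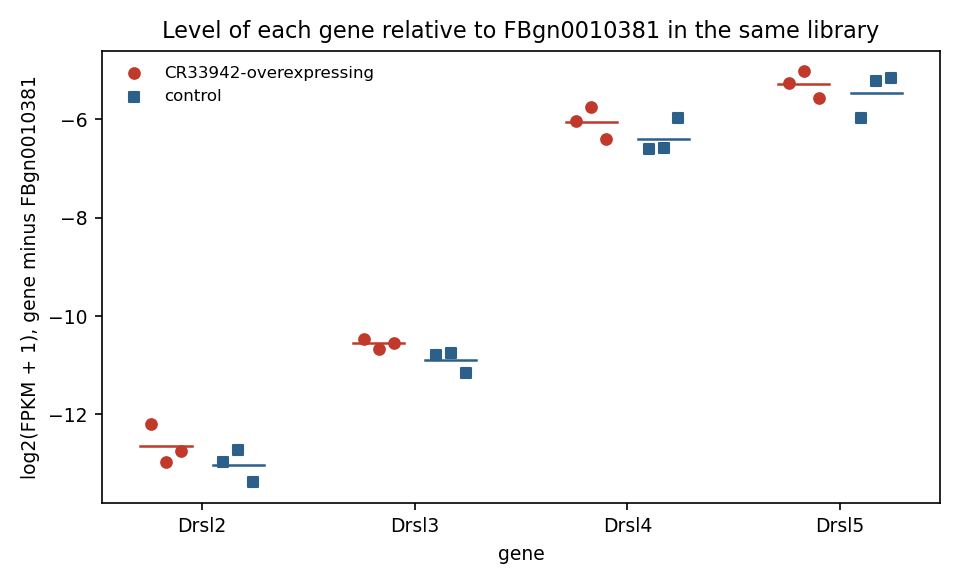
Level of each drosomycin-like gene relative to FBgn0010381 in the same library, as the difference of log2(FPKM + 1), in CR33942-overexpressing (circles) and control (squares) libraries; bars are group means. The 3 overexpressing libraries lie above the 3 control libraries for Drsl3 (-10.66 to -10.46 against -11.16 to -10.75), and the groups overlap for the other genes.

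Among 74 other genes with a mean of at least 1000 FPKM, those with a pattern over the 6 libraries near that of FBgn0010381 included RpL14, RpS30, RpLP2 and RpS18, which encode ribosomal proteins. Their root mean square differences from it in mean-centred log2(FPKM + 1) were 0.020, 0.021, 0.024 and 0.024, where the median gene stood at 0.113. RpL14 averaged 1117.6 ± 41.1 FPKM in overexpressing and 1158.3 ± 10.6 FPKM in control libraries (SD, n = 3 each). Like FBgn0010381, these are genes with little spread over the libraries.

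Of the 12 other genes in the stretch 9 were tested, and limma and voom each called 0, where limma called 2.22% and voom 3.73% of all genes. With 9 genes, counts of 0 are near those shares and do not set the stretch apart. Log2 changes ran from -0.64 to 0.13, with adjusted p of 0.266 or more. The lowest was that of lncRNA:CR45380, at 0.690 ± 0.372 FPKM in overexpressing and 1.67 ± 0.831 FPKM in control libraries (SD, n = 3 each). It was the 1 neighbour with an unadjusted limma p under 0.05. Its overexpressing mean lay below the 1 FPKM of the filter. With voom its log2 change was -1.20, with an unadjusted voom p of 0.0548. kst, which spans most of the gap between Drsl6 and Drs and encodes the beta-heavy spectrin, stood at 15.6 ± 0.901 FPKM in overexpressing and 17.1 ± 1.52 FPKM in control libraries (SD, n = 3 each). ZnT63C, a zinc transporter gene next to Drsl2, stood at 35.1 ± 1.84 FPKM in overexpressing and 34.1 ± 1.12 FPKM in control libraries. Ythdc1, a reader of methylated RNA next to Drs, stood at 23.3 ± 1.30 FPKM in overexpressing and 23.7 ± 0.961 FPKM in control libraries. PIG-C, Strip, Gtpx, CG14969 and CG12010 were the other tested neighbours. Dpm2, CG12016 and CG14961 were below the filter.

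The genes of the pathway that drives drosomycin had estimates in both directions. Of 23 tested Toll pathway components, 11 had a change above 0 and 12 below; limma called 1 higher and 0 lower, where 0.844% of all genes were called higher and 1.38% lower. The list's median log2 change was -0.04. voom called 1 higher and 3 lower (GNBP3, SPE and dl), where it called 1.26% of all genes higher and 2.47% lower. The gene that limma called was PGRP-SD, a gene for peptidoglycan recognition, at 639 ± 43.8 FPKM in overexpressing and 490 ± 25.1 FPKM in control libraries (SD, n = 3 each; limma adjusted p = 0.0381). That call held in 1 of the 6 fits without 1 library, the one without overexpressing replicate 2, with adjusted p up to 0.127. The NF-kB factor gene Dif had a log2 change of -0.10 (limma adjusted p = 0.455), and dl, which encodes Dorsal, one of -0.27 (limma adjusted p = 0.135, voom adjusted p = 0.0433). The estimates of spz (log2 change 0.33), Pli (0.21) and PGRP-SA (0.20) were above 0, and neither limma nor voom called them. Without overexpressing replicate 2, limma called 3 components higher and 1 lower, and 459 genes over the table. Dif, dl, GNBP3, SPE, spz, Pli and PGRP-SA were named after their values were seen.

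Other effector genes induced through Toll had mostly negative estimates. Of 22 tested Toll-induced effectors, limma called 0 higher and 2 lower, and voom called 0 higher and 7 lower. Over all genes tested, limma called 0.844% higher and 1.38% lower, and voom 1.26% higher and 2.47% lower. Of the 22 effectors, 18 had a change below 0, with a median of -0.23. SPH93, a serine protease homologue gene, fell to 23.2 ± 4.95 FPKM in overexpressing libraries, against 57.6 ± 6.22 FPKM in control libraries (SD, n = 3 each; limma adjusted p = 0.00599, called in all 6 fits without 1 library). CG45045, the other called gene, kept its call without overexpressing replicate 2 and in none of the other 5 such fits. Effectors induced mainly through Imd, the fly's other NF-kB pathway, had mostly positive estimates: of 12 tested, 10 had a change above 0, limma called 3 higher and 0 lower, voom called 7 higher and 0 lower, and the median was 0.61. The genes that limma called were CecA2, Def and AttC, which encode a cecropin, defensin and an attacin. CecA2 stood at 330 ± 62.7 FPKM in overexpressing and 93.3 ± 11.2 FPKM in control libraries (SD, n = 3 each; limma adjusted p = 0.00173) and was called in all 6 fits without 1 library. AttC was called in 2 such fits, without overexpressing replicate 2 or control replicate 1, and Def in 1, without overexpressing replicate 2. Whether the change of FBgn0010381 differs from those of these genes was not tested.

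JAK-STAT genes, listed because of the known control of Drsl3, gave 1 limma call, higher, among 10 tested. Over all genes tested, limma called 0.844% higher and 1.38% lower. With 10 genes, 1 call is too few to set the list apart from other genes. TotM, a stress peptide gene, stood at 64.3 ± 52.6 FPKM in overexpressing and 9.11 ± 2.09 FPKM in control libraries (SD, n = 3 each; limma adjusted p = 0.0485). Of the 6 fits without 1 library, the one without overexpressing replicate 2 kept that call, and voom did not make it (adjusted p = 0.0518). The receptor gene dome stood at 14.2 ± 2.63 FPKM in overexpressing and 13.9 ± 1.12 FPKM in control libraries, and the feedback inhibitor gene Socs36E at 12.1 ± 4.03 FPKM in overexpressing and 8.22 ± 0.628 FPKM in control libraries (SD, n = 3 each). Neither passed the threshold. TotA (log2 change 1.24) and TotC (1.71) were not called by limma or voom. Their within-group SD was wide, at 1.03 and 1.4 on the log2 scale. The choice of dome, Socs36E, TotA and TotC came after their values were seen. The list's median was 0.06, with 7 changes above 0 and 3 below.

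Markers of the fat body, the main source of systemic drosomycin, had negative estimates throughout. Of 7 tested markers limma called 0 higher and 3 lower, where it called 1.38% of all genes lower. All 7 had a change below 0, and the median was -0.46. With voom 4 of these markers were called lower, where voom called 2.47% of all genes lower. The number of markers called lower was 2 with TPM scaling, 1 with no filter and 1 with the replicate block. Those fits called 264, 199 and 110 genes over the table in either direction, against 274 in the main fit. The number was 6 without overexpressing replicate 2, where 459 genes were called over the table. It was 1 without any other single library, where 72 to 125 genes were called. fat-spondin fell to 24.8 ± 0.730 FPKM in overexpressing libraries, against 34.8 ± 1.06 FPKM in control libraries (SD, n = 3 each; limma adjusted p = 0.00668), a call held in all 6 fits without 1 library. Apoltp and mdy, a lipoprotein and a triglyceride synthesis gene, were also called lower, each held in 1 such fit, without overexpressing replicate 2. The summed level of the 8 fat body markers in the table was 188 to 246 FPKM in overexpressing libraries, against 268 to 323 FPKM in control libraries, with none at 0 in all libraries. The part of this shift in the level of FBgn0010381 was not tested.

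Markers of other tissues gave few calls. Over all genes tested, limma called 0.844% higher and 1.38% lower, and voom 1.26% higher and 2.47% lower. Of 5 tested trachea markers limma called 1 lower, the chitin deacetylase gene serp; voom called 2 lower, serp and verm, and the fit with the replicate block called 0. Their summed level was 65.2 to 72.4 FPKM in overexpressing and 77.2 to 86.7 FPKM in control libraries; serp kept its call in 2 of the 6 fits without 1 library, those without overexpressing replicate 2 or control replicate 3. Of 10 midgut markers limma called 0 and voom called betaTry higher, with 4 below an unadjusted limma p of 0.05; summed levels overlapped, at 6620.5 to 7076.3 FPKM in overexpressing and 6037.5 to 6861.0 FPKM in control libraries. alphaTry and Jon65Aiii, the most abundant of them by rule, are digestive protease genes and had log2 changes of 0.071 and -0.13. Of 4 salivary gland markers neither limma nor voom called any, and the unadjusted limma p was under 0.05 for 0; sums were 35.1 to 37.4 FPKM in overexpressing and 37.2 to 41.2 FPKM in control libraries, and fkh and CrebA had log2 changes of -0.089 and -0.094. Of 7 haemocyte markers limma and voom each called 1 lower, NimC1, a phagocytosis receptor gene. Its limma call held in 1 fit without a library, that without overexpressing replicate 2, and the replicate block called 0, with sums of 61.1 to 71.0 FPKM in overexpressing and 67.8 to 68.5 FPKM in control libraries. Of 5 accessory gland markers neither limma nor voom called any, and 1 had an unadjusted limma p under 0.05; sums were 1237.1 to 1365.6 FPKM in overexpressing and 1204.0 to 1442.9 FPKM in control libraries, and Acp36DE and Acp62F had log2 changes of 0.032 and 0.059. The part of these tissues in the values of the drosomycin-like genes was not tested.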

How the data were processed

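Messenger RNA of 6 libraries was selected with poly-T beads and sequenced as paired ends, per the labels' protocols. The labels' protocols name HISAT2 2.0.5 as the aligner and featureCounts 1.5.0-p3 as the counter; per the submitters' processing notes, dm6 was the genome build. The authors deposited 1 FPKM value per gene and library; their step from counts to FPKM and the use of strand are not given in the sources used here.

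Whole reads were recovered as FPKM times exon length divided by 1 factor per library: 15276 of 15918 genes above 0 (96.0%) came out whole within 0.01 of a read, and a length was solved for the other 642 (within 0.002). Totals were 17368604 to 19797135 reads in overexpressing and 17032191 to 19228313 in control libraries.

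Genes with at least 1 FPKM in at least 3 libraries (12326) entered a limma fit (version 3.58.1, R 4.3.3, eBayes with trend) on log2(FPKM + 1), two-sided, Benjamini-Hochberg, threshold 0.05. This scale understates changes of low genes. The fit was checked on simulated data. Members, gene lists, the marker lists and the rule for named genes (members, CR33942, neighbours within 5 kb of the cluster, up to 4 called or the 2 most abundant genes per list, the 5 nearest patterns) were chosen with earlier results of these data known. 3 marker genes (FASN1, btl, PPO1) had no matching identifier and were not used here. Sequence comparisons of the members were not analysed here. 1 of the 5 nearest patterns is not reported here. Alternatives were another added constant, no filter, TPM scaling, voom on recovered reads, a replicate block and leaving out each library.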

Additional observations from a re-analysis of the deposited data

How the results depend on the processing

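No tested member was called in any of 55 fits of a member under 11 alternatives (lowest adjusted p 0.193). Their directions held but for Drsl5, with log2 changes between -0.14 (without control replicate 1) and 0.27 when 1 library was left out. For Drsl5, the difference between groups in the within-library log2 ratio to FBgn0010381 lay between -0.085 and 0.33 in the same way. CR33942 stayed between 4.80 and 4.85 when 1 library was left out. Its log2 change was 4.89 with 0.1 FPKM added in place of 1, 4.89 with voom and 4.87 with TPM scaling. The count of genes called over the table, 274, was 199 with no filter, 264 with TPM scaling and 460 with voom on recovered reads. It was 110 with the replicate number as a block, and between 72 and 459 without 1 library. The called Toll pathway components, 1 of 23, were 0 with no filter on low values, 4 with voom, 0 with the block, and 0 to 4 without 1 library. The called Toll-induced effectors, 2 of 22, were 1 with no filter, 7 with voom, 1 with the block, and 1 to 6 without 1 library. The called Imd-induced effectors, 3 of 12, were 1 with no filter, 7 with voom, and 1 to 5 without 1 library. The called JAK-STAT genes, 1 of 10, were 0 with no filter, 0 with voom, 0 with the block, and 0 to 2 without 1 library. The alternatives for these last 2 lists were chosen after seeing the data. In each case the high end without 1 library was that without overexpressing replicate 2; the cause was not tested. Replicates with the same number did not deviate together (correlations of -0.0528, -0.185 and 0.0327 across genes). Such correlations cannot show whether the libraries were prepared as pairs. No member was called with or without the block. Depth limits Drsl2, Drsl1 and Drsl6. The planned promoter and protein descriptions were not run.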
